A study of Homo sapiens with 2 samples.

Results

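The mRNA levels of 10 genes of the TGF-beta superfamily were examined in control and FZR1 ko cells labelled T-47D, a breast cancer line, and treated with cisplatin. They are the ligand genes GDF15, GDF11, INHBA, INHBB, TGFB1, TGFB2, TGFB3, BMP2 and BMP4, and FST, which encodes the activin antagonist follistatin. The genes were taken by name, as the rows whose Entrez gene ID carries these NCBI symbols. All 10 had a value, among 23033 genes with a value in all. Control cells are labelled WT, and FZR1 ko cells as lacking FZR1, a coactivator of the ubiquitin ligase APC/C, after CRISPR/Cas9 editing and growth from a single cell, so the knockout rests on 1 clone. Both received cisplatin, a platinum drug that crosslinks DNA, at 2 µg/ml. The duration, and whether the sequenced control cells carried a vector, are not given in the sources used here (the methods name an empty vector for the cells grafted into mice). The data hold no library of cells without cisplatin, so no difference can be set against untreated cells. Total RNA of each was sequenced as 1 library, so no value below has a replicate error, no test was made, and every difference is one between these 2 libraries.

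Ligands of this superfamily are made as precursors, cut by proteases such as furin and secreted as dimers. TGF-beta and activin ligands bind pairs of type I and type II receptor kinases that phosphorylate SMAD2 and SMAD3, and BMP ligands act through SMAD1, SMAD5 and SMAD9. SMAD4 joins both branches in the nucleus, and SMAD6 and SMAD7 restrain them. GDF15 is a distant member that signals through GFRAL and RET in the hindbrain. It is a stress-induced cytokine whose gene is a known target of p53 and of the ATF4 pathway.

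The authors gave expression as FPKM, fragments per unit of transcript length and of library size, so levels can be compared between genes, but the number of reads behind a value is unknown. Among 244 short RNA genes, whose values come in steps of single reads, 46 shared a ratio between the libraries of 0.978 (FZR1 ko over control, within 0.5%), which puts their depths close to each other. FZR1 itself had 12.3 FPKM in control cells and 10.1 FPKM in FZR1 ko cells, a level that does not check the label because an edited gene can still be transcribed. The control values are those of the column named for the drug alone, beside a column that also names the FZR1 guide, and every direction given rests on those names. Of 7 luminal marker genes, 3 reached 1 FPKM in at least 1 library, KRT8, KRT18 and FOXA1, and the list summed to 1388 FPKM in control cells and 1744 FPKM in FZR1 ko cells. Nearly all of that sum was keratin, with KRT8 at 829 FPKM in control cells and 998 FPKM in FZR1 ko cells, and KRT18 at 552 and 740 FPKM. FOXA1 had 5.07 FPKM in control cells and 4.65 FPKM in FZR1 ko cells. The estrogen receptor gene ESR1, PGR, GATA3 and CDH1, which define luminal cells such as T-47D, were below 1 FPKM in both libraries, which goes against the label, and the identity of the cells was not tested. All 7 mesenchymal marker genes reached 1 FPKM in at least 1 library, with a sum of 336 FPKM in control cells and 327 FPKM in FZR1 ko cells. Most of that sum was VIM, vimentin, with 315 FPKM in control cells and 295 FPKM in FZR1 ko cells. Of the 7, VIM, FN1, ZEB2 and SNAI2 were lower in FZR1 ko, by log2 ratios (of FPKM + 1, FZR1 ko over control) of -0.09 to -0.73, and ZEB1, TWIST1 and CDH2 were higher. CDH2, N-cadherin, was the one past 2-fold, with 2.97 FPKM in control cells and 15.3 FPKM in FZR1 ko cells, and the median log2 ratio of the list was -0.09. The part of these markers in the differences below was not tested, and in bulk RNA fewer cells of a type and less RNA per cell cannot be told apart.

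GDF15 was the most abundant member in both libraries and the one with the lowest log2 ratio with 1 FPKM added to both values, although INHBB, INHBA and TGFB2 had a lower plain ratio of FPKM. Its level was 251 FPKM in control cells and 80.4 FPKM in FZR1 ko cells, 3.12-fold higher in control. All differences were computed as log2 of FPKM + 1 in FZR1 ko cells over FPKM + 1 in control cells, called the log2 ratio, which understates the difference of genes of low level. For GDF15 it was -1.63. Among the 13554 genes kept, those that reached 1 FPKM in either library, GDF15 had the 198th lowest log2 ratio, so that 1.46% of genes were as low or lower. GDF15 made up 69.5% of the summed FPKM of the 10 members in control and 42.9% in FZR1 ko. That sum was 361 FPKM in control cells and 187 FPKM in FZR1 ko cells, and without GDF15 it was 110 and 107 FPKM, so the difference of the sum was almost wholly that of GDF15.

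The order of the other members by level was similar in both libraries. In control it ran from TGFB1 and BMP2 through TGFB3, GDF11, TGFB2 and INHBB to FST, INHBA and BMP4, and in FZR1 ko GDF11 stood above TGFB3 and FST above INHBB. Of the 10 genes, 6 reached 1 FPKM in both libraries, 1 (INHBB) in control only, and 3 (INHBA, FST and BMP4) in neither. No replicate spread is at hand to say which neighbours in this order differ.

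**Figure D1:**
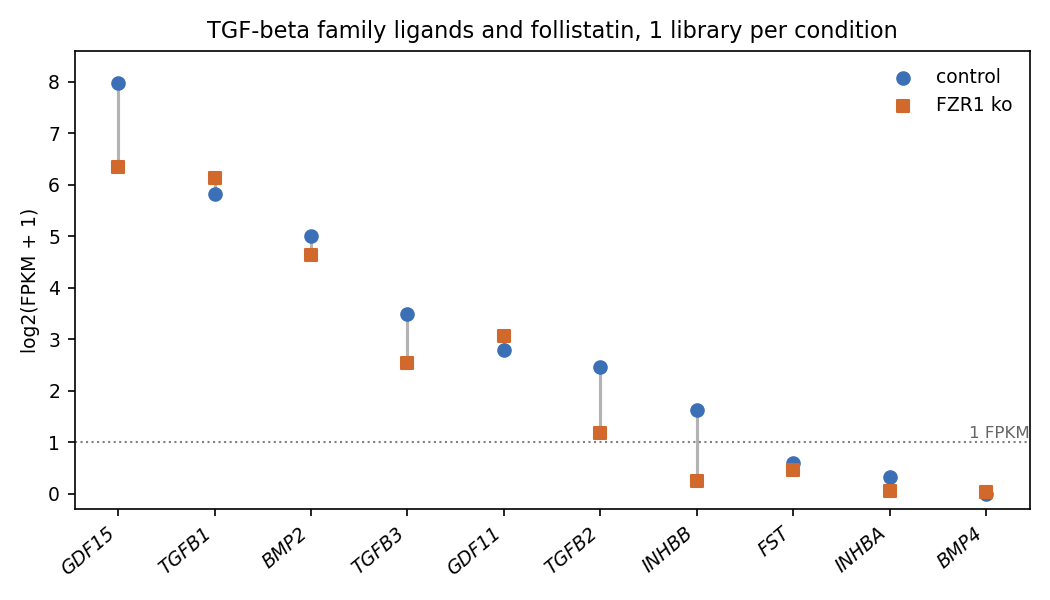
Level of each of the 10 genes as log2(FPKM + 1) in the control library (circles) and the FZR1 ko library (squares), ordered by control, with a grey line joining the pair and a dotted line at 1 FPKM. GDF15 stands highest in both libraries and has the longest line, with 251 FPKM in control cells against 80.4 FPKM in FZR1 ko cells, while TGFB1 and GDF11 are slightly higher in FZR1 ko.

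A difference of at least 2-fold on this scale was found for 3 of the 10 genes, GDF15, INHBB and TGFB2, and all 3 were lower in FZR1 ko. Over the genes kept, 13.5% differed at least 2-fold, 6.72% lower and 6.78% higher in FZR1 ko. Of the 10 members 7 were kept, and INHBB was kept through control alone. The 3 genes are thus 3 of 7 on the footing of the 13.5%, a difference that rests on few genes and was not tested. The median log2 ratio of all 10 members was -0.32, against 0 for all genes with a value, and that of the 7 kept was -0.96, against -0.0048 for all genes kept. Counting every member, 7 had a lower and 3 a higher value in FZR1 ko, where 45.6% of all genes with a value, many of them listed at 0 in both libraries, were lower. Of the 7 kept, 5 were lower, against 50.3% of all genes kept.

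**Figure D2:**
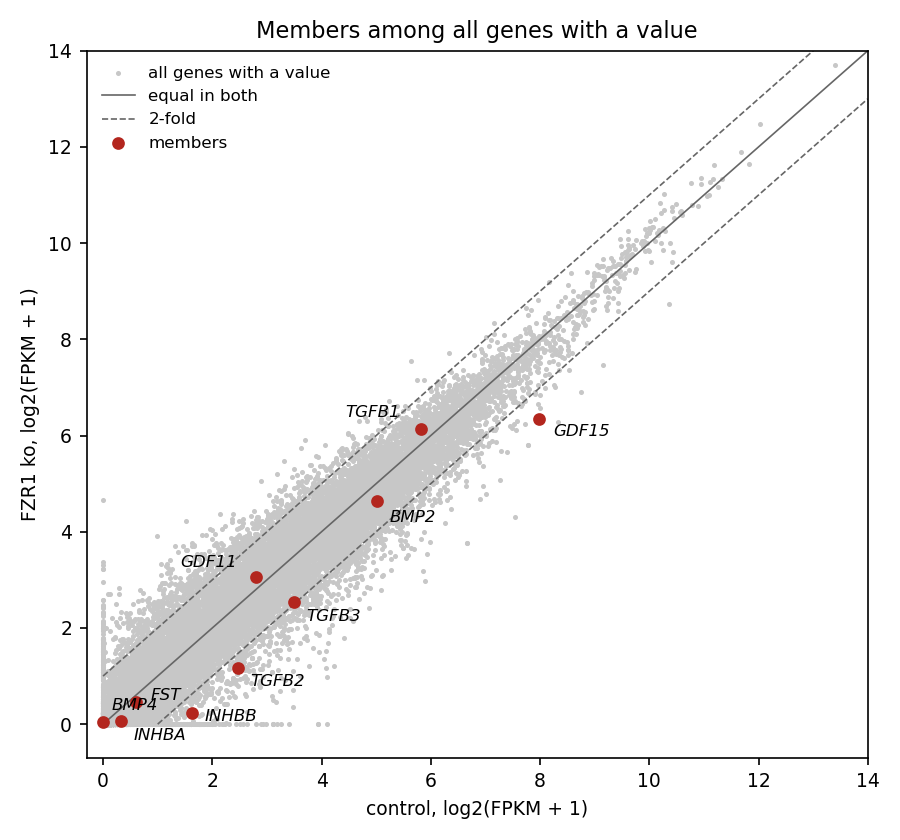
Each of the 23033 genes with a value by log2(FPKM + 1) in control (horizontal) and in FZR1 ko (vertical), with the 10 members in red, a solid line where both are equal and dashed lines at a 2-fold difference. GDF15, TGFB2 and INHBB lie below the lower dashed line, TGFB3 lies just above it, and the others lie between the dashed lines.

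Among the TGF-beta isoforms, TGFB1 and the others differed in opposite directions. TGFB1, the most widely made isoform, had 55.3 FPKM in control cells and 68.9 FPKM in FZR1 ko cells (log2 ratio 0.31). TGFB2, which needs the co-receptor TGFBR3 to bind its receptors well, had 4.54 FPKM in control cells and 1.26 FPKM in FZR1 ko cells (log2 ratio -1.29). TGFB3, an isoform known for its role in palate closure, had 10.3 FPKM in control cells and 4.82 FPKM in FZR1 ko cells, and its log2 ratio of -0.96 lay just short of 2-fold. Control thus had the lower level of TGFB1 and the higher level of TGFB2 and TGFB3, and only TGFB2 was past the threshold. TGFB1 was 5.37-fold as high as TGFB3 in control and 14.3-fold in FZR1 ko. Exons of the main transcripts of TGFB1, TGFB2 and TGFB3 overlap the spans, introns included, of genes on the opposite strand. Among these genes are TMEM91, TGFB2-AS1 and IFT43. Whether exons of both genes of a pair overlap was not examined, and the sources used here do not state that counting used strand. It is thus not known whether reads of such pairs were mixed. TMEM91, which overlaps TGFB1, had 2.98 FPKM in control cells and 5.18 FPKM in FZR1 ko cells, higher in FZR1 ko as TGFB1 was. TGFB2-AS1 had 0.46 and 0.35 FPKM, and IFT43, which overlaps TGFB3, had 10.5 FPKM in control cells and 10.7 FPKM in FZR1 ko cells. The part of these genes in the values of the isoforms was not tested.

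The activin genes were scarce in both libraries. INHBB, which encodes the beta B subunit of activin B, had 2.1 FPKM in control cells and 0.18 FPKM in FZR1 ko cells (log2 ratio -1.39). INHBA, the beta A subunit of activin A, had 0.26 FPKM in control cells and 0.04 FPKM in FZR1 ko cells (log2 ratio -0.28). FST, whose protein binds activins and keeps them from their receptors, had 0.52 FPKM in control cells and 0.38 FPKM in FZR1 ko cells (log2 ratio -0.14). All 3 were lower in FZR1 ko, but INHBA and FST stayed below 1 FPKM in both libraries, where the pseudocount sets most of the log2 ratio and few reads may make up a value. An exon of INHBA overlaps the span, introns included, of INHBA-AS1 on the opposite strand. INHBA-AS1 had 0.46 FPKM in control cells and 0.54 FPKM in FZR1 ko cells, above INHBA in both. Whether exons of both overlap was not examined, so the value of INHBA is uncertain. The ratio of FPKM without a pseudocount was 11.7 for INHBB and 6.5 for INHBA, control to FZR1 ko.

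The bone morphogenetic protein genes and GDF11 stayed within the 2-fold limits. BMP2, an osteogenic ligand, had 31.2 FPKM in control cells and 23.9 FPKM in FZR1 ko cells (log2 ratio -0.37). BMP4, a ligand of early patterning, was listed at 0 in control and had 0.03 FPKM in FZR1 ko. GDF11, a close relative of myostatin that patterns the vertebral axis, had 5.94 FPKM in control cells and 7.33 FPKM in FZR1 ko cells (log2 ratio 0.26). Of the 2 BMP members BMP2 was the abundant one, and it was the third most abundant of the 10 in both libraries. An exon of GDF11 overlaps the span, introns included, of SARNP on the opposite strand. SARNP had 32.5 FPKM in control cells and 39.1 FPKM in FZR1 ko cells. Whether exons of both overlap was not examined, so part of the GDF11 value is uncertain.

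**Figure D3:**
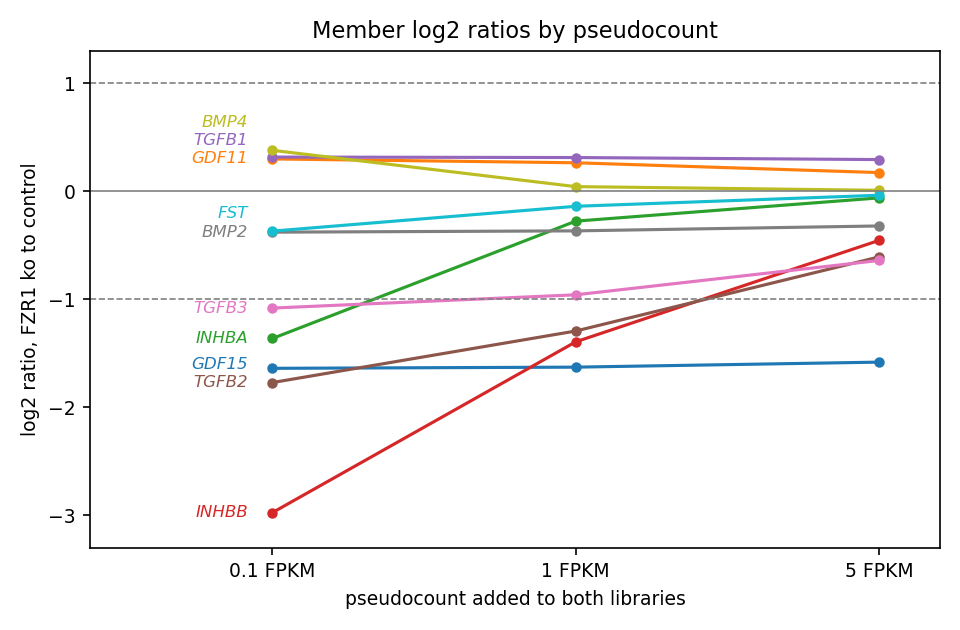
Log2 ratio of FZR1 ko to control for each member with 0.1, 1 or 5 FPKM added to both libraries, with dashed lines at 2-fold. GDF15 stays near -1.63 throughout, while INHBB runs from -2.97 to -0.45 and TGFB2 from -1.77 to -0.61.

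The members lie apart in the genome. On hg38 the main transcript of GDF15 is at chr19:18386158-18389176 on the plus strand, with 2 exons that join to 1200 bases, and MIR3189, listed at 0 in both libraries, lies in its intron. TGFB2 is at chr1:218345336-218444619 on the plus strand with 7 exons, INHBB at chr2:120346136-120351803 on the plus strand with 2 exons, and TGFB1 at chr19:41330323-41353922 on the minus strand with 7 exons. The 250 bases before the RefSeq start of the 3 genes that differed at least 2-fold, and of TGFB1, the second most abundant member, which differed the other way, are shown on their own strand to place the named promoter motifs. The windows are chr19:18385908-18386157 for GDF15, chr2:120345886-120346135 for INHBB, chr1:218345086-218345335 for TGFB2 and chr19:41353923-41354172 for TGFB1 (RefSeq, GRCh38.p14, the assembly of hg38). Capitals mark matches to the TATA box TATAAA, to the GC box GGGCGG, to the AP-1 site TGANTCA or to the p53 half-site, searched on both strands.
GDF15: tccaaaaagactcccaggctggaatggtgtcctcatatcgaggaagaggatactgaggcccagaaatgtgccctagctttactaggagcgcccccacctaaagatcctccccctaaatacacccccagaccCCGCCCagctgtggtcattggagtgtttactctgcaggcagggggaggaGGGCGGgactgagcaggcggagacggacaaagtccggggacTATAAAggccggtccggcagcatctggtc
INHBB: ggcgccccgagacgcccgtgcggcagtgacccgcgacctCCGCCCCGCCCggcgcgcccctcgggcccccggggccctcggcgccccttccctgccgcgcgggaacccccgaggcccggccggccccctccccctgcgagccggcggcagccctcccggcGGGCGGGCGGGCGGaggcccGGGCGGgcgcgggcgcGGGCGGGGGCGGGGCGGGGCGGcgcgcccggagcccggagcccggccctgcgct
TGFB2: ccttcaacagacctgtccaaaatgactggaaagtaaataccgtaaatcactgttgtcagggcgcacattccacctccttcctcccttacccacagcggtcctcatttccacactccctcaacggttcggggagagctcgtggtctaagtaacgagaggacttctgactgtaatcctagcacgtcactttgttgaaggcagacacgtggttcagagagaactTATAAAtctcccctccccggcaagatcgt
TGFB1: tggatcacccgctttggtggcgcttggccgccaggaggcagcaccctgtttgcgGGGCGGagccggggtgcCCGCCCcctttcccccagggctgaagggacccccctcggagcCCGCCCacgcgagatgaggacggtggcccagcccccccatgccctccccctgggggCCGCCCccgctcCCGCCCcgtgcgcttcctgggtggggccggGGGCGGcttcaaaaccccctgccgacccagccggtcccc

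The TATA box matched GDF15 and TGFB2, each from 29 to 24 bases before the start, and it was found in 10.7% of 35116 windows of this length. GC boxes, where the factor SP1 is known to bind, numbered 2 in GDF15, 10 in INHBB, some of them overlapping, 6 in TGFB1 and 0 in TGFB2, and 42.6% of windows held at least 1. The INHBB window was 89.6% G or C, against 58.4% in GDF15, 50.4% in TGFB2 and 76.8% in TGFB1. Neither the AP-1 site (6.57% of windows) nor the p53 half-site (5.57%) was in these 4 windows. Of the 9 members with a window in the table, GDF11 and INHBA held a TATA box as well, from 33 to 28 and from 11 to 6 bases before the start, TGFB3 held a p53 half-site, from 52 to 43 bases before its RefSeq start, and FST an AP-1 site, from 160 to 154. A match describes letters only, and the lack of one says nothing about binding elsewhere.

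Genes whose products are known to act on the GDF15 promoter were read as well. EGR1, an immediate early zinc finger factor, had 15.4 FPKM in control cells and 1.57 FPKM in FZR1 ko cells (log2 ratio -2.68). ATF4, the main factor of the integrated stress response, had 159 FPKM in control cells and 148 FPKM in FZR1 ko cells (log2 ratio -0.11). DDIT3, which encodes CHOP, had 19.3 FPKM in control cells and 12.9 FPKM in FZR1 ko cells (log2 ratio -0.55). Of these, EGR1 was past 2-fold. They are mRNA levels, and ATF4 is mainly set at the protein level.

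The 5 genes nearest to GDF15 by Euclidean distance of log2(FPKM + 1) over the 2 libraries were MARCKSL1, ARL6IP1, JUNB, CDKN1A and WDR74, at distances of 0.23 to 0.40. MARCKSL1, an actin-binding protein gene, had 254 FPKM in control cells and 94.6 FPKM in FZR1 ko cells. CDKN1A, the p53 target that encodes the cell cycle inhibitor p21, had 319 FPKM in control cells and 77.2 FPKM in FZR1 ko cells. JUNB, an AP-1 subunit gene, had 247 FPKM in control cells and 99.2 FPKM in FZR1 ko cells. Over 2 libraries likeness means only a similar level and ratio.

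The rest of the pathway was read from lists written from general knowledge of the superfamily, but with earlier results of these data known, so their counts are no independent evidence of a direction. Together with the regulators of GDF15 they held 105 genes, of which 103 had a value and 62 were kept, with 4 of the genes in 2 lists. Of those 62, 10 were at least 2-fold lower and 4 at least 2-fold higher in FZR1 ko, against 6.72% and 6.78% of all genes kept.

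Of 24 other ligand genes of the superfamily, 7 were kept, 3 lower and 4 higher in FZR1 ko, with a median log2 ratio of 0.16. BMP6, a ligand that also drives hepcidin in the liver, was the one past 2-fold, with 4.82 FPKM in control cells and 11.2 FPKM in FZR1 ko cells (log2 ratio 1.06). AMH, the anti-Müllerian hormone gene, had 8.19 FPKM in control cells and 6.48 FPKM in FZR1 ko cells. GDF1 shares its locus with CERS1, and BMP8A and BMP8B are near-identical, so their values are uncertain.

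Of 17 receptor and co-receptor genes, 10 were kept, 4 lower and 6 higher in FZR1 ko, with a median log2 ratio of 0.24. TGFBR1, the type I TGF-beta receptor, had 12.3 FPKM in control cells and 4.53 FPKM in FZR1 ko cells (log2 ratio -1.27). TGFBR3, betaglycan, had 1.11 FPKM in control cells and 3.55 FPKM in FZR1 ko cells (log2 ratio 1.11). TGFBR2, the type II receptor, had 4.77 and 6.91 FPKM, and endoglin (ENG), the most abundant of the list, had 24.6 FPKM in control cells and 39.5 FPKM in FZR1 ko cells. The 2 TGF-beta receptor kinases thus differed in opposite directions. The GDF15 receptor genes were near 0, with GFRAL at 0.44 FPKM in control cells and 0.17 FPKM in FZR1 ko cells, and RET listed at 0 in both.

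Of 14 extracellular antagonist genes, the 4 kept were all lower in FZR1 ko (50.3% of all genes kept were lower) and none was past 2-fold. Their median log2 ratio was -0.65, and it was -0.07 over all genes of the list with a value. FSTL3, a relative of follistatin that also binds activins, had 185 FPKM in control cells and 104 FPKM in FZR1 ko cells (log2 ratio -0.83). It was far above FST in both libraries. NBL1, a BMP antagonist of the DAN family, had 25.4 FPKM in control cells and 13.3 FPKM in FZR1 ko cells (log2 ratio -0.89).

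Of 13 genes for latency and activation, 8 were kept, 3 lower and 5 higher in FZR1 ko, with a median log2 ratio of 0.24. THBS1, thrombospondin 1, an activator of latent TGF-beta, had 14.9 FPKM in control cells and 6.42 FPKM in FZR1 ko cells (log2 ratio -1.09). FURIN, the convertase that cuts TGF-beta precursors, had 71.1 FPKM in control cells and 43.9 FPKM in FZR1 ko cells (log2 ratio -0.68). LTBP4, a latent TGF-beta binding protein of the matrix, had 13.0 FPKM in control cells and 23.1 FPKM in FZR1 ko cells (log2 ratio 0.78). THBS1 was the one gene of this list past 2-fold.

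Of 13 SMAD and SMAD regulator genes, 12 were kept, 5 lower and 7 higher in FZR1 ko, with a median log2 ratio of 0.26. SMAD6, which restrains BMP signals, had 2.05 FPKM in control cells and 6.30 FPKM in FZR1 ko cells (log2 ratio 1.26), and it was the one past 2-fold. SMAD7, which restrains TGF-beta signals, had 11.6 FPKM in control cells and 11.2 FPKM in FZR1 ko cells. SKIL, whose protein SnoN represses SMAD targets and is a known substrate of APC/C with FZR1, had 24.7 FPKM in control cells and 14.1 FPKM in FZR1 ko cells (log2 ratio -0.76).

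Of 14 TGF-beta and activin target genes, 12 were kept, 11 lower and 1 higher in FZR1 ko (50.3% of all genes kept were lower), with a median log2 ratio of -0.89. In this list 5 genes were at least 2-fold lower and 0 higher, against 6.72% and 6.78% of all genes kept, and the difference was not tested. CDKN2B, which encodes the cell cycle inhibitor p15, had 55.2 FPKM in control cells and 13.3 FPKM in FZR1 ko cells (log2 ratio -1.97). IL11, a cytokine of the interleukin-6 family, had 42.9 FPKM in control cells and 12.3 FPKM in FZR1 ko cells (log2 ratio -1.72). TAGLN, an actin-binding protein gene, had 26.4 and 8.46 FPKM (-1.54), JUNB had a log2 ratio of -1.31, and CCN2, a matrix growth factor, had 21.9 and 9.86 FPKM (-1.08). TGFBI, a matrix protein gene, was the exception, with 40.9 FPKM in control cells and 48.3 FPKM in FZR1 ko cells (log2 ratio 0.23). Most of these genes also answer to other signals, and JUNB is an immediate early gene as well.

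Of 10 BMP target genes, 8 were kept, 4 lower and 4 higher in FZR1 ko, with a median log2 ratio of 0.13 that was -0.55 over the genes that reached 1 FPKM in both. The inhibitor of differentiation genes, which encode partners that block bHLH factors, were split. ID1 had 74.1 FPKM in control cells and 137 FPKM in FZR1 ko cells (log2 ratio 0.88), and ID3 had 27.0 and 61.4 FPKM (1.16). ID2 had 28.4 FPKM in control cells and 4.36 FPKM in FZR1 ko cells (log2 ratio -2.45). BAMBI, a pseudoreceptor gene, had 20.6 FPKM in control cells and 8.94 FPKM in FZR1 ko cells (log2 ratio -1.12). SMAD6, counted here too, completes the 4 genes past 2-fold, of which 2 were lower and 2 higher, against 6.72% and 6.78% of all genes kept, a difference that was not tested.

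**Figure D4:**
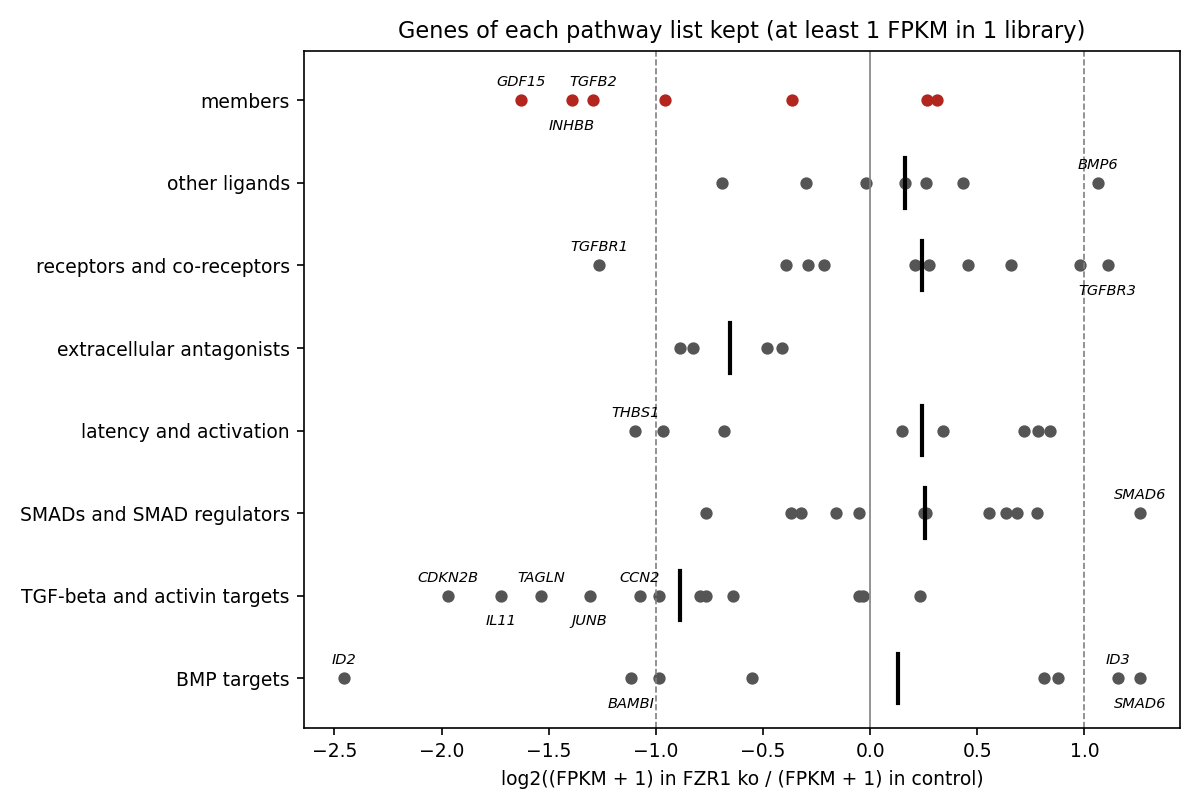
Log2 ratio of FZR1 ko to control for the genes kept of each pathway list, 1 point per gene, with the members in red, a black bar at the median of each other list, dashed lines at 2-fold and names beside the genes past them. In the TGF-beta and activin target list 11 of 12 points lie left of 0, whereas the BMP targets lie on both sides, from -2.45 (ID2) to 1.26 (SMAD6).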

How the data were processed

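RNA of the control and the FZR1 ko cells, both labelled T-47D, was sequenced on the BGISEQ-500, 1 library each. The authors aligned reads to the transcriptome with Bowtie2 and quantified them with RSEM on hg38, and the deposited values are FPKM per Entrez gene ID, to 2 decimals. The methods and the submitters' processing notes differ on the Bowtie2 version (the notes give 2.2.5), and the notes also name Trimmomatic 0.36 and HISAT2 2.1.0. The annotation, fragment length and use of strand are not given in the sources used here. FPKM holds no counts, so no intervals or floors are given, and values of low genes may rest on few reads.

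Of 24663 rows, 1630 had no value. Of the 23033 others, 22925 (99.5%) matched a symbol in the RefSeq table of GRCh38.p14. The log2 ratio used a pseudocount of 1 FPKM, genes kept had at least 1 FPKM in at least 1 library, and the threshold was 2-fold. The computation was tested on simulated data. Transcripts and overlaps came from GENCODE 44 and promoter windows from RefSeq. Every member was named, as were FZR1, the markers, the 5 genes nearest to GDF15 and, of each list, genes past 2-fold and up to 4 of the highest mean FPKM. BMP8A, GDF1, CERS1, GFRAL, RET and the genes overlapping members were named outside this rule, and some genes within the lists are not reported here by name. Members and lists were chosen with earlier results of these data known. Alternatives were a pseudocount of 0.1 or 5 FPKM, centring, rescaling, other filters and a 3-fold threshold. Python 3.11.15, numpy 2.4.6, pandas 2.3.3 and matplotlib 3.10.9 were used.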

Additional observations from a re-analysis of the deposited data

How the results depend on the processing

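No paired analysis was possible because there is a single library per group and nothing to test, and leaving a library out would end the comparison. With a pseudocount of 5 FPKM 1 member, GDF15, was at least 2-fold lower in place of 3, and the same single gene passed a 3-fold threshold. A pseudocount of 0.1 FPKM gave 4 members, adding TGFB3, and requiring 1 FPKM in both libraries gave 2, without INHBB. The log2 ratio of INHBB was -2.97 with a pseudocount of 0.1 FPKM and -0.45 with 5 FPKM, that of TGFB2 -0.61 with 5 FPKM, and that of INHBA -1.36 with 0.1 FPKM. No member changed direction in 40 values over the pseudocounts, centring and rescaling, and 36 of these moved by less than 1.5-fold. The unchanged directions are no check. A pseudocount added to both values cannot change a direction, and centring and rescaling shifted the log2 ratios only slightly. The median over all 10 members ran from -0.73 to -0.19 over these settings, and it was -0.96 over the 7 kept. In all, 2818 genes were at least 2-fold different with a pseudocount of 0.1 FPKM, 453 with 5 FPKM and 403 at 3-fold, against 1830. The genes lower, 911 at first, numbered 270 with 5 FPKM and 229 at 3-fold. The genes higher, 919 at first, numbered 1460 with 0.1 FPKM, 183 with 5 FPKM and 174 at 3-fold. Of the pathway genes, 7 were past 2-fold with 5 FPKM and 4 past 3-fold, in place of 14. By construction, fewer genes pass with a larger pseudocount or threshold. Among protein-coding genes only, chosen after seeing the data, 1395 of 11550 were past 2-fold. The medians of the other ligands, receptors, latency genes and BMP targets were 0 without the filter, and those of the other ligands and BMP targets were below 0 with 1 FPKM required in both libraries, so no direction is read from them. Unknown depth limits INHBA, INHBB, FST and BMP4 most.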
